A study of Mus musculus with 6 samples.

Results

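The neuronal cytoskeleton was followed through 10 genes on 6 Illumina bead arrays: Tubb3, Tubb2b, Map2, Mapt, Map1b, Nes, Ina, Nefl, Nefm and Dpysl3. Every probe that the platform's annotation assigns to these genes was taken, which gave 24 of the 25697 probes, and each probe was kept apart. The cells were E14, a mouse embryonic stem cell line. In the control group 3 samples carried the pSuper vector, a plasmid for expressing hairpins, and in the other group 3 samples carried an shRNA against REST, a hairpin RNA meant to lower the REST transcript. Both groups were treated for 72 h. The labels do not say in which vector the shRNA was carried, nor whether cells were selected. No separate cultures are named in the labels, so the p-values measure only how these samples scatter, and that scatter may be technical. In bulk RNA, fewer cells that express a gene and less of its RNA per cell cannot be told apart.

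REST is a repressor that keeps many neuronal genes silent in cells that are not neurons. Neurons build their processes from microtubules and neurofilaments. Microtubules are polymers of alpha- and beta-tubulin, and they are bound and stabilized by microtubule-associated proteins such as Map2 in dendrites and tau, the product of Mapt, in axons. Intermediate filaments change as neural cells mature, with nestin in progenitors, alpha-internexin in young neurons, and the neurofilament subunits in axons later on.

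Of the 24 probes, 14 were above background on at least 3 arrays and were tested, and they covered 7 of the 10 genes. A probe counted as above background where its detection p was under 0.05. Levels are normalized log2 intensities, and a probe was called changed at an adjusted p under 0.05 in a limma fit over all 12406 tested probes. By that rule 3 member probes rose, 6 fell and 5 were not called, while among all tested probes 12.8% rose, 13.1% fell and 25.9% were called in either direction. Probes of 1 gene share a target, and 5 of the 14 belong to Tubb2b, so these counts are not counts of independent genes. The values of the 3 control and 3 REST shRNA arrays did not overlap for 11 of the 14 tested probes, with REST shRNA above control for 3 and below for 8, against 43.3% of all tested probes. For 1 probe, exact permutation of 3 arrays against 3 gives a two-sided p of 0.1 at the lowest.

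Promoter windows of the 3 members with a called rise, and of Tubb3, are shown because a REST binding element has 2 arms that can be looked for in them. Each window runs from 250 bases before to 50 bases after the gene's start, from RefSeq in build GRCm38.p6, 5′ to 3′ on the gene's own strand. Capitals mark the letters of the left arm, CAGCACC, or the right arm, GGACAG, on either strand. The Ina window is chr19:47014431-47014730 (+ strand), the Map2 window chr1:66175079-66175378 (+ strand), the Map1b window chr13:99516553-99516852 (- strand) and the Tubb3 window chr8:123411303-123411602 (+ strand).
Ina: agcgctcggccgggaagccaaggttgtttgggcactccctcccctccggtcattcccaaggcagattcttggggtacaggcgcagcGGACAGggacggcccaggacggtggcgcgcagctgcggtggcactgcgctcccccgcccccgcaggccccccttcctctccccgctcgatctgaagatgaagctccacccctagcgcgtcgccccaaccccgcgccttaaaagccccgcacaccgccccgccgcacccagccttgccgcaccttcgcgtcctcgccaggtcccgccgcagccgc
Map2: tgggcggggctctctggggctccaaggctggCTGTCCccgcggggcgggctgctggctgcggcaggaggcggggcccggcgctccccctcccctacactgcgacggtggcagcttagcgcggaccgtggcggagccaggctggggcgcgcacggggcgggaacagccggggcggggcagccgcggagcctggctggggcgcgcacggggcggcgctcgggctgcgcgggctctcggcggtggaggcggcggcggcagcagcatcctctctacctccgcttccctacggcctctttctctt
Map1b: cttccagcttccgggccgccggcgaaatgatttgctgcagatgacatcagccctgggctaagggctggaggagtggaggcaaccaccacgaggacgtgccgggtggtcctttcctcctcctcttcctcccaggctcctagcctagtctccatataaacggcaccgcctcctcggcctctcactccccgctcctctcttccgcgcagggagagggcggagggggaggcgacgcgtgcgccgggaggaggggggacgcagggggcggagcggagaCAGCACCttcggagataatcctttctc
Tubb3: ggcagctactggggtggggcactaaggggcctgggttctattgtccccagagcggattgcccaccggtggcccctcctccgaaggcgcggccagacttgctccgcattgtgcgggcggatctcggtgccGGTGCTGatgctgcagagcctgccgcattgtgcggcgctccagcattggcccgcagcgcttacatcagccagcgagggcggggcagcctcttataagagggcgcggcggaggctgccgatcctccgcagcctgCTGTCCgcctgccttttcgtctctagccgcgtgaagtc

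Windows were found for 5 of the members that could be shown, the fifth being Nes. Ina held the right arm 164 to 159 bases before the start. Map2 held the right arm on the opposite strand, 219 to 214 bases before the start, and Map1b held the left arm 23 to 29 bases after it. Tubb3 held both arms on the opposite strand, the left arm 121 to 115 bases before and the right arm 12 to 17 bases after the start, far apart. The window of Nes, which fell, held neither arm. Among 32851 windows of this length, 7.14% held the left arm, 22.2% the right arm, 1.73% both arms at any distance and 0.0365% both arms with 2 bases between them, the arrangement searched for as a whole element. None of the windows of Ina, Map2, Map1b, Tubb3 and Nes held that arrangement. A match or its lack describes these letters in these windows and says nothing of REST binding.

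Ina, which encodes alpha-internexin, an intermediate filament subunit of young neurons, had the largest change of the 14 tested probes. Its probe ILMN_2836494 read 6.03, 6.09 and 5.36 on the log2 scale in control replicates 1 to 3 and 7.33, 7.59 and 8.45 in the REST shRNA replicates. All 3 REST shRNA arrays lay above all control arrays, but they lay apart from each other, with replicate 3 the highest. The mean rose from 5.83 ± 0.41 to 7.79 ± 0.58 (SD, n = 3), or 3.90-fold, with a log2 change of 1.96 and an SE of 0.29 (limma adjusted p = 0.00225). Its rise ranked 22 of the 12406 tested probes. Its SD over the REST shRNA arrays was also wide, at rank 29 among the tested probes. The Ina call held under every alternative that kept the probe (the stricter filter, a detection p of 0.01 on each of 6 arrays, removed it), and the log2 change was between 1.49 and 2.19.

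Of the other intermediate filament genes among the members, only Nes had a tested probe, and it fell. Nes encodes nestin, the filament protein of neural progenitors. Its brighter probe ILMN_2703267 read 6.67, 6.65 and 6.48 in control and 5.80, 5.80 and 5.30 in REST shRNA cells. The groups did not overlap, and the mean fell by 0.97 ± 0.15 on the log2 scale (SE, n = 3), 1.96-fold lower (limma adjusted p = 0.00284). With an offset of 50 the log2 change was -0.65, still called (adjusted p = 0.000178). The other Nes probe, ILMN_2904590, was above background on 1 control array alone, with mean intensities of 8.87 ± 8.56 in control and 4.63 ± 4.25 in REST shRNA cells (SD, n = 3), and was not tested.

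Nefl and Nefm, the light and medium neurofilament subunits, stayed at background. The Nefl probe had a mean intensity of 3.37 ± 5.92 in control and 0.13 ± 6.64 in REST shRNA cells (SD, n = 3), where 0 is the background of the array. The Nefm probe had -5.77 ± 4.71 and -3.77 ± 6.19 (SD, n = 3). Neither was above background on any of the 6 arrays, on which the lowest intensity that counted as above background was 14.3 to 16.5. A rise to below that level was not detectable with these probes. The heavy subunit gene Nefh, which is no member, had a probe above background on all 6 arrays. It read 6.29, 6.47 and 6.66 in control and 7.11, 7.32 and 7.46 in REST shRNA cells, a 1.77-fold rise (limma adjusted p = 0.0036, n = 3).

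**Figure D1:**
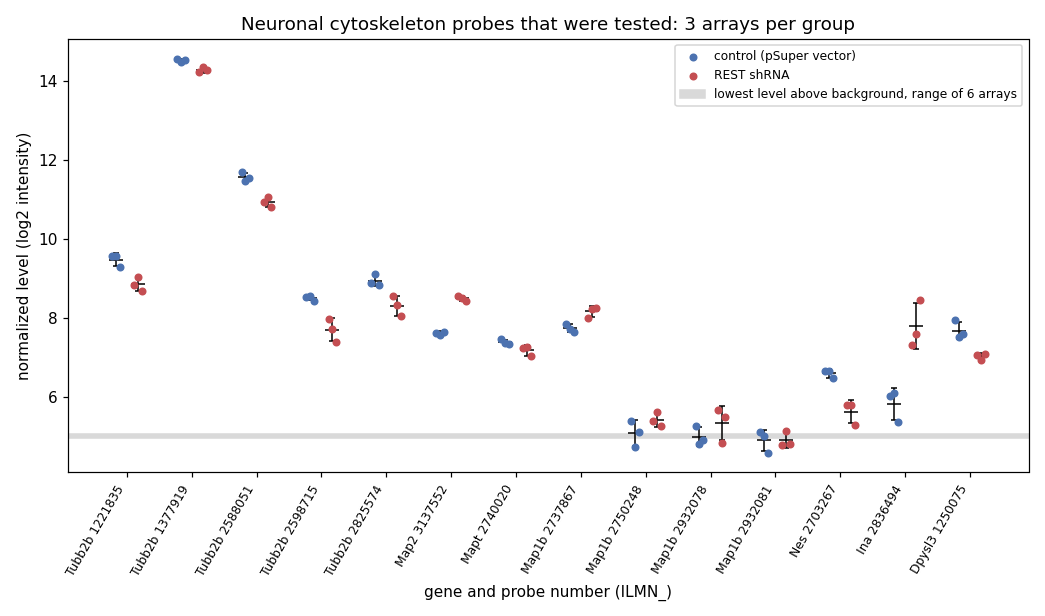
Normalized log2 level of each of the 14 tested probes on the 3 control arrays (blue) and the 3 REST shRNA arrays (red), with the mean and SD as bars, and the range of the lowest level above background as a grey band. Axis labels give the gene and the number of its probe. Ina and Map2 lie higher in REST shRNA cells, 5 Tubb2b probes, Nes and Dpysl3 lie lower, and 3 of the 4 Map1b probes sit at the grey band.

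Among the microtubule-associated proteins, Map2 rose. Map2 stabilizes microtubules in dendrites. The probe ILMN_3137552 read 7.63, 7.56 and 7.66 in control and 8.55, 8.50 and 8.44 in REST shRNA cells, so that the groups lay apart and each was narrow. The level rose 1.84-fold, by 0.88 ± 0.10 on the log2 scale (SE, n = 3; limma adjusted p = 0.000770). Its other probes, ILMN_1226553 and ILMN_2709782, were below background on all 6 arrays, with mean intensities of -7.93 ± 3.52 and 2.77 ± 3.04 in REST shRNA cells (SD, n = 3). The rise therefore rests on 1 of 3 Map2 probes. Which Map2 transcripts each probe detects was not analysed here.

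Map1b, a protein of growing axons that binds microtubules, rose at 1 of its 4 probes. The probe ILMN_2737867 read 7.86, 7.73 and 7.65 in control and 8.01, 8.24 and 8.25 in REST shRNA cells, 1.34-fold higher, or 0.42 ± 0.12 on the log2 scale (SE, n = 3; limma adjusted p = 0.0276). The smallest gap between the groups was narrow, from 7.86 to 8.01. The call was lost without control replicate 2 (adjusted p = 0.0757), control replicate 3 (0.0769), REST shRNA replicate 2 (0.0895) or REST shRNA replicate 3 (0.0862), while the log2 change stayed between 0.37 and 0.50 without any 1 array. The other Map1b probes were close to background. ILMN_2750248 had a log2 change of 0.34 ± 0.18 and ILMN_2932078 also one of 0.34 but with an SE of 0.21, and ILMN_2932081 had 0.01 ± 0.16 (n = 3; limma adjusted p = 0.194, 0.268 and 0.984). Single arrays moved both of the first probes. ILMN_2750248 had 0.16 without control replicate 2 and 0.49 without control replicate 1, neither called (adjusted p = 0.523 and 0.0758), and 0.17 with an offset of 50. ILMN_2932078 had 0.18 without REST shRNA replicate 1 (adjusted p = 0.590), 0.25 without control replicate 2 (0.517) and 0.26 without REST shRNA replicate 3 (0.501), while without REST shRNA replicate 2 it had 0.59 and passed the test (0.0398). It had 0.18 with an offset of 50 and 0.23 with array weights (adjusted p = 0.253 and 0.493).

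Mapt, which encodes the axonal protein tau, did not pass the test. The probe ILMN_2740020 read 7.46, 7.37 and 7.35 in control and 7.24, 7.28 and 7.03 in REST shRNA cells. The groups did not overlap, but the log2 change of -0.21 ± 0.11 (SE, n = 3) had a limma adjusted p of 0.193. It was -0.13 without REST shRNA replicate 3 (adjusted p = 0.453) and -0.09 in the authors' ratios (0.673). The other Mapt probes, ILMN_1257750, ILMN_3034121 and ILMN_3107817, were below background on all arrays. The mean intensities of these probes in REST shRNA cells were 8.50 ± 3.57, -4.30 ± 3.04 and -7.07 ± 5.49 (SD, n = 3).

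Tubb3 and Tubb2b encode beta-tubulins found in neurons, and Tubb3 is the isotype used as a neuronal marker. The only Tubb3 probe, ILMN_1252657, was below background on all 6 arrays. Its intensities were -6.8, 1.2 and -2.6 in control and 5.9, -2.1 and -5.8 in REST shRNA cells, around 0 in both groups. Of the 10 member probes that were too dim to test, 9 were below background on every array, and their mean intensities differed between groups by -4.23 to 7.80 when all 10 are counted.

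**Figure D2:**
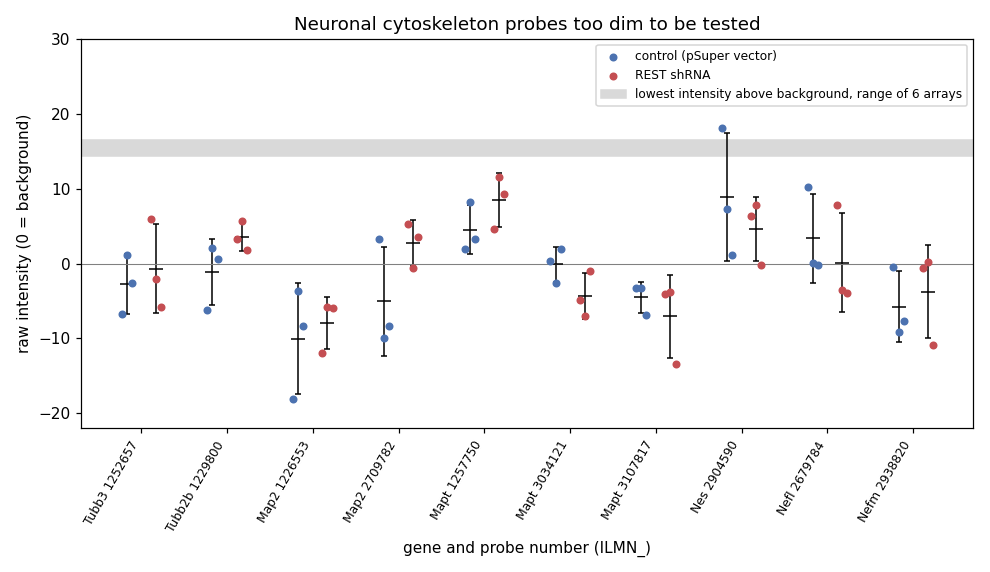
Raw intensity of the 10 member probes that were not tested, by array, with 0 as the background, mean and SD as bars, and the grey band giving the lowest intensity above background over the 6 arrays (14.3 to 16.5). All points lie below the band but for 1 control array of a Nes probe at 18.1.

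Tubb2b fell at 4 of its 5 tested probes. The probe ILMN_2588051 read 11.69, 11.46 and 11.54 in control and 10.95, 11.06 and 10.80 in REST shRNA cells. This was 1.54-fold lower, with a log2 change of -0.63 ± 0.12 (SE, n = 3; limma adjusted p = 0.00560). The probe ILMN_2598715 had the largest fall, from 8.54, 8.55 and 8.44 to 7.98, 7.73 and 7.39, a log2 change of -0.81 ± 0.15 (SE, n = 3; limma adjusted p = 0.00540). The REST shRNA arrays lay below every control array at each of the 5 probes. ILMN_1221835 had a log2 change of -0.62 and ILMN_2825574 one of -0.64 (limma adjusted p = 0.0102 and 0.0137), and the latter was not called without control replicate 2 (-0.56, adjusted p = 0.0515).

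The brightest Tubb2b probe had the smallest change and was not called. ILMN_1377919 read 14.56, 14.48 and 14.54 in control and 14.21, 14.34 and 14.27 in REST shRNA cells, with a log2 change of -0.25 ± 0.10 (SE, n = 3; limma adjusted p = 0.102). Its change was -0.42 with median scaling in place of quantile normalization, where it was called lower (adjusted p = 0.0190). It was also called with a trended robust variance model (adjusted p = 0.00244). Its raw intensity was 24885 ± 1180 in control and 18977 ± 373 in REST shRNA cells (SD, n = 3), while the brightest probes of the arrays reached 56390 to 65170. The sixth Tubb2b probe, ILMN_1229800, was below background on all arrays. Tubulin genes are close in sequence, and which tubulin transcripts each probe binds was not analysed here. The only probe of Tubb2a, the nearest relative of Tubb2b, was below background on all arrays, with a mean intensity of 7.93 ± 0.91 in control and 6.70 ± 8.02 in REST shRNA cells (SD, n = 3).

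Dpysl3 encodes a member of the collapsin response mediator proteins (CRMPs), which bind tubulin and act in axon growth. Its only probe, ILMN_1250075, read 7.94, 7.53 and 7.58 in control and 7.07, 6.93 and 7.08 in REST shRNA cells. The groups lay apart, and the level was 1.58-fold lower, at a log2 change of -0.66 ± 0.13 (SE, n = 3; limma adjusted p = 0.00814). The other CRMP genes did not move with it. Of 4 tested, 2 rose and 2 were not called, with a median log2 change of 0.45, where 13.9% of all tested genes rose and 13.1% fell by their brightest probe. Dpysl4 went from 6.78, 6.79 and 6.82 to 7.78, 7.87 and 7.61, a log2 change of 0.95 ± 0.11 (SE, n = 3; limma adjusted p = 0.000771). Crmp1 rose 1.57-fold, and its other tested probe also rose, by 0.46 on the log2 scale. The Crmp1 call was lost without REST shRNA replicate 1 (adjusted p = 0.0520) or 2 (0.0679). Dpysl2 and Dpysl5 had 0.11 and 0.24 (adjusted p = 0.507 and 0.153).

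**Figure D3:**
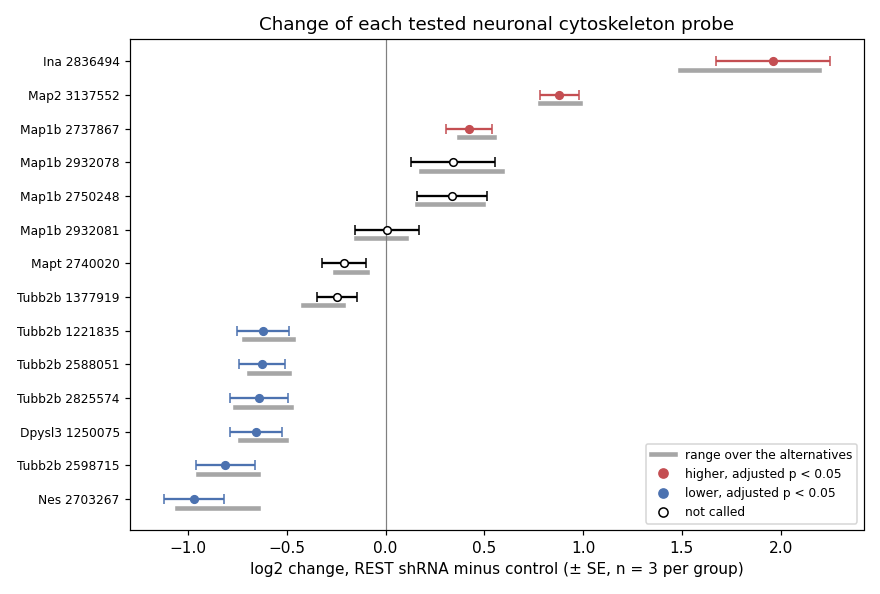
Log2 change of each tested member probe, REST shRNA minus control, with its SE (n = 3 per group), and in grey the range over the other processing settings and left-out arrays. The changes run from -0.97 for Nes to 1.96 for Ina, and only the Map1b probe with a change of 0.01 has a grey range that crosses 0.

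Of 12 other intermediate filament genes tested, 7 were lower, 1 was higher and 4 were not called, where 13.1% of all tested genes fell and 13.9% rose, and the median log2 change was -0.55 against -0.006 over all tested probes. The keratins Krt8 and Krt19, filaments of simple epithelia, had log2 changes of -0.84 ± 0.10 and -0.95 ± 0.16 (SE, n = 3; limma adjusted p = 0.00102 and 0.00368). Prph, the peripherin of peripheral neurons, read 6.27, 5.75 and 5.75 in control and 5.09, 5.11 and 4.92 in REST shRNA cells, 1.84-fold lower, and was above background on 2 of the 3 REST shRNA arrays. With an offset of 50 the log2 change of Prph was -0.50 in place of -0.88, and it was still called (adjusted p = 0.00181). Nefh was the gene that rose. Outside the naming rule, and picked with their values known, were 4 more genes that fell: Vim (-0.54), the nuclear lamin gene Lmna (-0.59), Krt18 (-0.57) and the muscle filament gene Des (-0.61), and all 5 probes of Lmna were lower. The number that fell was 5 in the authors' ratios and 5 to 7 without any 1 array.

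Tubulins other than the members were mostly not called. Of 13 tested genes 2 fell and 11 were not called, with a median log2 change of -0.03. Among all tested genes 13.1% fell and 13.9% rose. The alpha-tubulin gene Tuba3a had a log2 change of -0.47 ± 0.12 (SE, n = 3; limma adjusted p = 0.0177), and all 4 of its probes were called lower, while Tuba3b, close to it in sequence, had -0.24 (adjusted p = 0.341). The gamma-tubulin gene Tubg2 had -0.41 ± 0.12 (SE, n = 3; limma adjusted p = 0.0376). The widely expressed Tubb5 and Tuba1b had 0.13 and 0.16 (adjusted p = 0.367 and 0.316). Without control replicate 1, control replicate 2, REST shRNA replicate 2 or REST shRNA replicate 3 neither of the 2 calls was kept (adjusted p from 0.0513 to 0.0615 for Tuba3a and from 0.0706 to 0.116 for Tubg2), Tubg2 was also lost without control replicate 3 (0.0779), and neither was called in the authors' ratios (0.116 and 0.193), where Tubg2 had -0.26. Tubg2 was also not called without the filter (0.0520). Without REST shRNA replicate 1, 3 tubulin genes fell.

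Among 15 tested microtubule-binding genes, 3 were higher, 3 were lower and 9 were not called (median log2 change 0.07). These shares are near those of all tested genes, of which 13.9% rose and 13.1% fell. The doublecortin-like kinase Dclk2 read 8.88, 8.54 and 8.46 in control and 7.84, 7.85 and 7.70 in REST shRNA cells, a log2 change of -0.83 ± 0.13 (SE, n = 3; limma adjusted p = 0.00299). The severing enzyme Fign rose by 0.74 ± 0.16 and the end-binding protein Mapre2 by 0.59 ± 0.15 on the log2 scale (SE, n = 3; limma adjusted p = 0.0104 and 0.0185). With an offset of 50 Fign had 0.41 and was still called (adjusted p = 0.00645). A second Mapre2 probe had 0.16 and was not called. Tppp, a tubulin polymerization protein, had 0.57 but was above background on 1 control array. The Mapre2 call was lost without control replicate 2, REST shRNA replicate 2 or REST shRNA replicate 3 (adjusted p from 0.0564 to 0.0661), and the Tppp call without control replicates 2 or 3 or REST shRNA replicates 1 or 3 (from 0.0783 to 0.0932) and with an offset of 50 (0.27, adjusted p = 0.0531). Without control replicate 2 the counts over the 15 genes were 1 higher and 2 lower, and without REST shRNA replicate 3 they were 1 and 1. Without control replicate 3 and without REST shRNA replicate 1 they were 2 and 1, and without REST shRNA replicate 2 they were 2 and 2.

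Among 11 tested genes for tubulin folding and modification, 1 rose, 1 fell and 9 were not called (median log2 change 0.00). The shares of all tested genes were 13.9% higher and 13.1% lower. The tubulin deacetylase Hdac6 had a log2 change of -0.57 ± 0.12 (SE, n = 3; limma adjusted p = 0.00973), with a second probe at -0.08 that was not called. The tubulin ligase-like gene Ttll12 rose by 0.57 ± 0.13 (SE, n = 3; limma adjusted p = 0.0123).

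Of 11 tested kinases and phosphatases that act on tau, Map1b or CRMPs, 3 rose, 1 fell and 7 were not called, and the median log2 change was 0.21. Beside this, 13.9% of all tested genes rose and 13.1% fell. The median was 0.09 without control replicate 1 and 0.11 without REST shRNA replicate 3. Cdk5r1, which encodes p35, the activator of the neuronal kinase Cdk5, read 5.29, 5.32 and 5.46 in control and 6.75, 6.54 and 6.70 in REST shRNA cells. This was a 2.48-fold rise with a log2 change of 1.31 ± 0.11 (SE, n = 3; limma adjusted p = 0.000182). With an offset of 50 it was 0.85, still called (adjusted p = 4.77e-06). Cdk5 itself had 0.27 ± 0.15 (SE, n = 3) and was not called (adjusted p = 0.205). The microtubule-affinity kinases Mark2 and Mark3 rose by 0.63 ± 0.12 and 0.49 ± 0.13 on the log2 scale (SE, n = 3; limma adjusted p = 0.00547 and 0.0231), but second probes had 0.05 and 0.39 and were not called. The tyrosine kinase Fyn had -0.43 and was above background on 1 REST shRNA array. The Mark3 call was lost without control replicate 2, REST shRNA replicate 2 or REST shRNA replicate 3 (adjusted p from 0.0669 to 0.0699), and the Fyn call without control replicates 1 or 2 or REST shRNA replicates 2 or 3 (from 0.0849 to 0.125), and in the authors' ratios, without the filter, with an offset of 50 (a log2 change of -0.21) and with the trended robust variance model (from 0.0572 to 0.110). Without control replicate 2, REST shRNA replicate 2 or REST shRNA replicate 3, 2 of the kinases and phosphatases rose. The probes of the casein kinase gene Csnk1d, named with its values known and counted as not called by its brightest probe (-0.28), disagreed, with 2 of 5 called lower (-0.34 and -0.71) and 1 called higher (0.65).

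Of 8 tested spectrin, ankyrin and membrane skeleton genes, 3 rose, 1 fell and 4 were not called, with a median log2 change of 0.07. By their brightest probe, 13.9% of all tested genes rose and 13.1% fell. The adducins Add3 and Add1, which cap actin and recruit spectrin, rose by 0.46 ± 0.10 and 0.40 ± 0.10 on the log2 scale (SE, n = 3; limma adjusted p = 0.0118 and 0.0224). Another Add3 probe rose by 0.41, while a further one, at -0.04, and the second Add1 probe, at 0.21, were not called. Ank2 had 0.65 ± 0.19, above background on 1 control array, and Epb41l1 had -0.45 ± 0.11 (SE, n = 3; limma adjusted p = 0.0368 and 0.0199). A second Epb41l1 probe, at -0.82, was also called lower (limma adjusted p = 0.00135). The Add1 call was lost without control replicates 1 or 3 or REST shRNA replicates 1 or 3 (adjusted p from 0.0556 to 0.0687), and the Ank2 call without control replicates 2 or 3 or REST shRNA replicates 1 or 3 (from 0.0743 to 0.121), without the filter (0.0720) and with array weights (0.0608). With an offset of 50 Ank2 had 0.34 and was called (0.0285). The brightest Epb41l1 probe lost its call without control replicates 1 or 2 or REST shRNA replicates 1 or 3 (from 0.0528 to 0.0671). It was also not called in the authors' ratios (0.114). Without REST shRNA replicate 1, REST shRNA replicate 3 or control replicate 3, 1 of these genes rose. The beta-spectrin gene Sptbn1, named with its values known, was counted as not called by its brightest probe (-0.05), but its other tested probe was called lower (-0.56, adjusted p = 0.0125).

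Growth cone and neurite actin regulators had 2 of 12 tested genes higher, Crmp1 again and Dbnl, an actin-binding adaptor, with 10 not called and a median log2 change of -0.02. For all tested genes the shares were 13.9% higher and 13.1% lower. Dbnl rose by 0.46 ± 0.12 (SE, n = 3; limma adjusted p = 0.0187), a call lost without control replicate 2, REST shRNA replicate 2 or REST shRNA replicate 3 (adjusted p from 0.0605 to 0.0661). Without REST shRNA replicates 1 or 3 or control replicate 2, 1 of the 12 rose, and without REST shRNA replicate 2 it was 0. Tmsb10, a thymosin that binds actin, was counted as not called by its brightest probe (-0.15), but its other 2 tested probes were called lower (-0.51 and -0.44, adjusted p = 0.0155 and 0.0383); it is named with its values known. Gap43, the growth cone protein, was below background on all arrays (mean intensity 7.67 ± 4.70 in control and -0.13 ± 5.39 in REST shRNA cells, SD, n = 3).

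**Figure D4:**
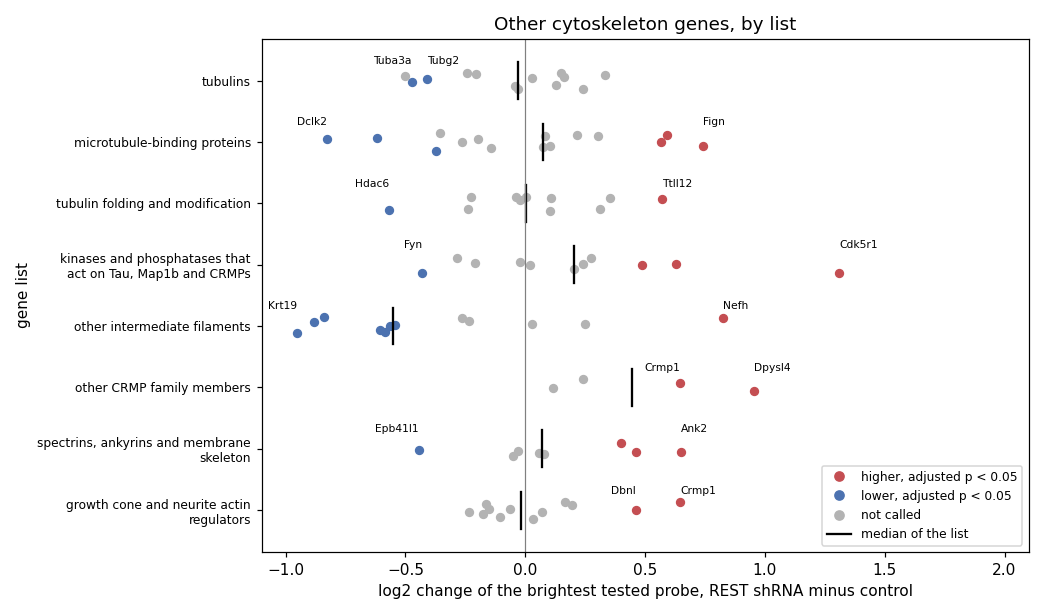
Log2 change of each tested gene of the 8 other cytoskeleton lists, REST shRNA minus control, at its brightest tested probe, with called genes in colour, the lowest and highest called gene of each list named, and the median as a black line. Other intermediate filaments lie mainly below 0, with 7 genes lower, and other CRMP genes lie above 0.

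Cell type markers were read beside these results. For scale, 13.9% of all tested genes rose and 13.1% fell by their brightest probe. All 9 embryonic stem cell markers were above background and tested, with 1 higher, 1 lower and 7 not called. Zfp42, a marker of naive stem cells, rose by 0.66 on the log2 scale. Pou5f1, a core pluripotency factor, had -0.63, and its other probe was also called lower, at -0.66 (limma adjusted p = 0.00362 and 0.00466). Sums of marker intensities are raw, not normalized between arrays, and negative intensities were left out of them. The summed intensity of the stem cell markers was 143806 to 154302 in control and 130746 to 138568 in REST shRNA arrays. Most of this sum came from 2 Dppa5a probes, ILMN_3018711 and ILMN_3090545. After normalization these probes had log2 changes of -0.02 and -0.17 and were not called (limma adjusted p = 0.914 and 0.249). Of 10 neuron markers, 4 were tested, of which 3 rose (Syn1 by 0.88, Elavl3 by 0.96 and Rbfox3 by 0.55 on the log2 scale), and the summed intensity went from 555 to 681 in control to 1159 to 1320 in REST shRNA arrays. The remaining tested neuron marker, Celf4, had 0.42 with overlapping groups and was not called (limma adjusted p = 0.122). The neuron markers Snap25, Syt1, Elavl4, Neurod1, Gap43 and Dcx were below background on all 6 arrays. None of the 6 neural progenitor markers with a probe was bright enough to be tested, with summed intensities of 19 to 32 and 9 to 15. Of 8 fibroblast markers 2 were tested and 1 fell, with summed intensities of 544 to 764 in control and 484 to 526 in REST shRNA arrays. The marker that fell was Acta2 (-0.44), while its other tested probe had 0.23 and was not called (limma adjusted p = 0.257). Most of the fibroblast sum came from Thy1, with mean intensities of 526.5 in control and 413 in REST shRNA cells. After normalization Thy1 had a log2 change of -0.36 and was not called (limma adjusted p = 0.0616). Of 4 tested glia markers 2 were lower, Aldh1l1 (-0.62) and Slc1a3 (-0.34), with summed intensities of 997 to 1226 in control and 775 to 918 in REST shRNA arrays, which did not overlap. The 1 tested mesoderm and muscle marker, Des, was lower, with summed intensities of 228 to 257 and 151 to 210. The 1 tested endoderm marker was not called, with 45 to 58 in both groups. The summed intensities of the stem cell, fibroblast, glia and muscle markers were all lower in REST shRNA arrays, without overlap. The neural progenitor sum was lower as well, but it held only probes too dim to be tested. The neuron sum was higher, and the endoderm sums overlapped. Des, which gave most of the muscle sum, is itself among the intermediate filament genes that fell. The part of other cells in the changes of the members was not tested.

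The mean intensity per array was 441.9 to 473.0 and 46.4% to 49.0% of probes were above background. The only Rest probe was below background on all 6 arrays, with mean intensities of -0.03 ± 0.60 in control and 0.63 ± 2.52 in REST shRNA cells (SD, n = 3), so the depth of the knockdown is unknown. In the authors' ratios 2118 of all tested probes were higher and 907 lower, against 1590 and 1619 here. The member counts, 3 higher and 6 lower, were equal in both.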

How the data were processed

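RNA of 6 samples was hybridized as biotin-labelled cRNA to Illumina bead arrays, per the labels. Groups and replicate numbers came from the titles. The deposited table holds linear intensities, not normalized between arrays, with each array's background at 0, and a detection score as a fraction, which rose with intensity, so 1 minus the score served as detection p. The authors also deposited linear ratios for the same probes and arrays. The software behind both is not given in the sources used here, and the reference of the ratio and the scale of its centring stay unknown.

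Intensities were background corrected with limma 3.58.1 (R 4.3.3; normexp from the detection p, offset 16), quantile normalized and put on the log2 scale.  Of 25697 probes, 12406 passed a detection p of 0.05 on 3 or more of the 6 arrays and were tested with limma's moderated linear model with group as its only term, adjusted by Benjamini-Hochberg over all tested probes. Levels are means ± SD and changes are REST shRNA minus control. Symbols came from the platform annotation, and in the other lists a gene is read at its brightest tested probe (8740 genes).

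The members and gene lists were chosen with earlier results of these data known. Named are all member probes, Rest and, per other list, up to 4 called genes with the smallest p. The fit was tested on simulated data. Alternatives were median scaling, leaving out background correction or the filter, the authors' ratios, a stricter filter (detection p 0.01, all 6 arrays), array weights, a trended robust variance model, an offset of 50, a replicate block, a minimum fold of 1.5, and each array left out. Promoter windows were searched on both strands. The number of arrays limits the precision.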

Additional observations from a re-analysis of the deposited data

How the results depend on the processing

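Of the 9 called member probes, only Ina was called under all alternatives that kept its probe. The called probes of Map2, Nes and Dpysl3, and the Tubb2b probes ILMN_1221835, ILMN_2588051 and ILMN_2598715, lost the call only with the minimum fold. The stricter filter removed the Nes probe, as it did Ina, so neither had a call there. With a test against a minimum fold of 1.5 (limma's treat), 1 member probe was higher, Ina, and 0 were lower (2 higher and 1 lower at an unadjusted p under 0.05), 96 and 35 of all probes, and 1 and 0 of the genes in the other lists (2 and 4 at an unadjusted p under 0.05). That test asks for more than a nonzero change, so fewer calls follow from its construction. Leaving out each array gave 2 to 3 member probes higher and 5 to 6 lower, 1030 to 1356 of all probes higher and 1005 to 1365 lower, and 8 to 13 genes of the other lists higher and 8 to 13 lower. The lowest counts over all probes came without control replicate 2 (1031 higher and 1005 lower) and without REST shRNA replicate 3 (1030 and 1007). In the authors' ratios 907 of all probes and 8 genes of the other lists were lower. The cause was not tested. Apart from the minimum fold, the alternatives gave 1 to 5 microtubule-binding genes lower, 0 to 3 tubulins lower and 1 higher at most, 5 to 8 other intermediate filament genes lower, 1 to 3 membrane skeleton genes, 2 to 4 kinases and phosphatases and 0 to 2 growth cone genes higher. The tubulin and growth cone medians, -0.03 and -0.02, were 0.11 and 0.13 in the authors' ratios, where the median of all probes was 0.09. Of the 23 named genes of the other lists, 12 kept their call without any 1 array. The Map1b probe ILMN_2932081, with a log2 change near 0, turned sign with median scaling (-0.0037), without control replicate 3 (-0.15) and without REST shRNA replicate 2 (-0.11), ran from -0.15 to 0.10 over the left-out arrays, and was uncalled each time. With the replicate block, 2 member probes were higher and 6 lower, as the Map1b probe ILMN_2737867 was not called (adjusted p = 0.0550), nor was Tubg2 (0.0560), and 1418 of all probes were higher and 1463 lower. Deviations of same-numbered arrays correlated at -0.06, 0.03 and 0.04 across probes, which gave no ground to pair them. Member probes at background bound any change only by the lowest intensity above background.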
